A study of Flaveria bidentis and Flaveria robusta with 100 samples.

Results

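Sigma factors are the nuclear-encoded proteins that guide the plastid-encoded RNA polymerase to its promoters. The polymerase core is encoded in the plastid genome, while its sigma factors are encoded in the nucleus, made in the cytosol and imported, so their transcripts are a route by which the nucleus can set which plastid genes are read. In Arabidopsis, SIG5 carries light, stress and circadian timing information to the plastid, chiefly at the light-responsive promoter of psbD, which encodes the D2 protein of photosystem II. The set described here has 6 members, SIG1 (AT1G64860), SIG2 (AT1G08540), SIG3 (AT3G53920), SIG4 (AT5G13730), SIG5 (AT5G24120) and SIG6 (AT2G36990). They were found by these Arabidopsis gene identifiers among the 21869 identifiers to which the authors assigned Flaveria reads. Of the 6, 5 had values above 0 and passed the filter on low values (at least 1 RPM on average), while SIG4 is listed at 0 in all 50 means and was not tested.

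The samples are mature leaves of F. bidentis, a C4 plant, and F. robusta, a C3 plant, both without any transgene or treatment in the labels. All plants grew in a greenhouse for 36 days, then for 6 days in a chamber set to 22 °C during 10 lit hours and 20 °C during 14 dark hours (LD), and were then kept in constant light (LL). Leaves were taken every 4 h on 2 days in LD, on 2 days in LL and at the first hour of LL day 3, which gives 25 time points per species, each with 2 biological replicates. Time points are named by zeitgeber time (ZT, hours after real or subjective lights on). ZT12, ZT16 and ZT20 were dark in LD and lit in LL, and ZT00 of LL day 1 directly followed a dark night. LL always followed LD, so that the regime cannot be told apart from the day of sampling or plant age. The temperature in LL is not given here, so that light at the hours dark in LD cannot be told apart from temperature either.

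Each value is the authors' mean over the libraries of 1 time point, in RPM, that is reads scaled to a fixed total per library. No spread between plants was used, so p-values measure the scatter of time-point means around a model, and a single mean carries no error. The 5 leaf genes looked up as a check of the tissue (RBCS1A, RCA, LHCA1, LHCB4.2 and LHCB5, of Rubisco, its activase and the antennae) were high in every mean, with a lowest value of 219.5 RPM. Because every mean sums to nearly the same total, a shift in the bulk of genes moves all values; scaling by the bulk of genes (TMM) gave factors from 0.812 to 1.36, and calls that it changed are named beside their values. In whole leaves, fewer cells of a type and less RNA per cell cannot be told apart.

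**Figure D1:**
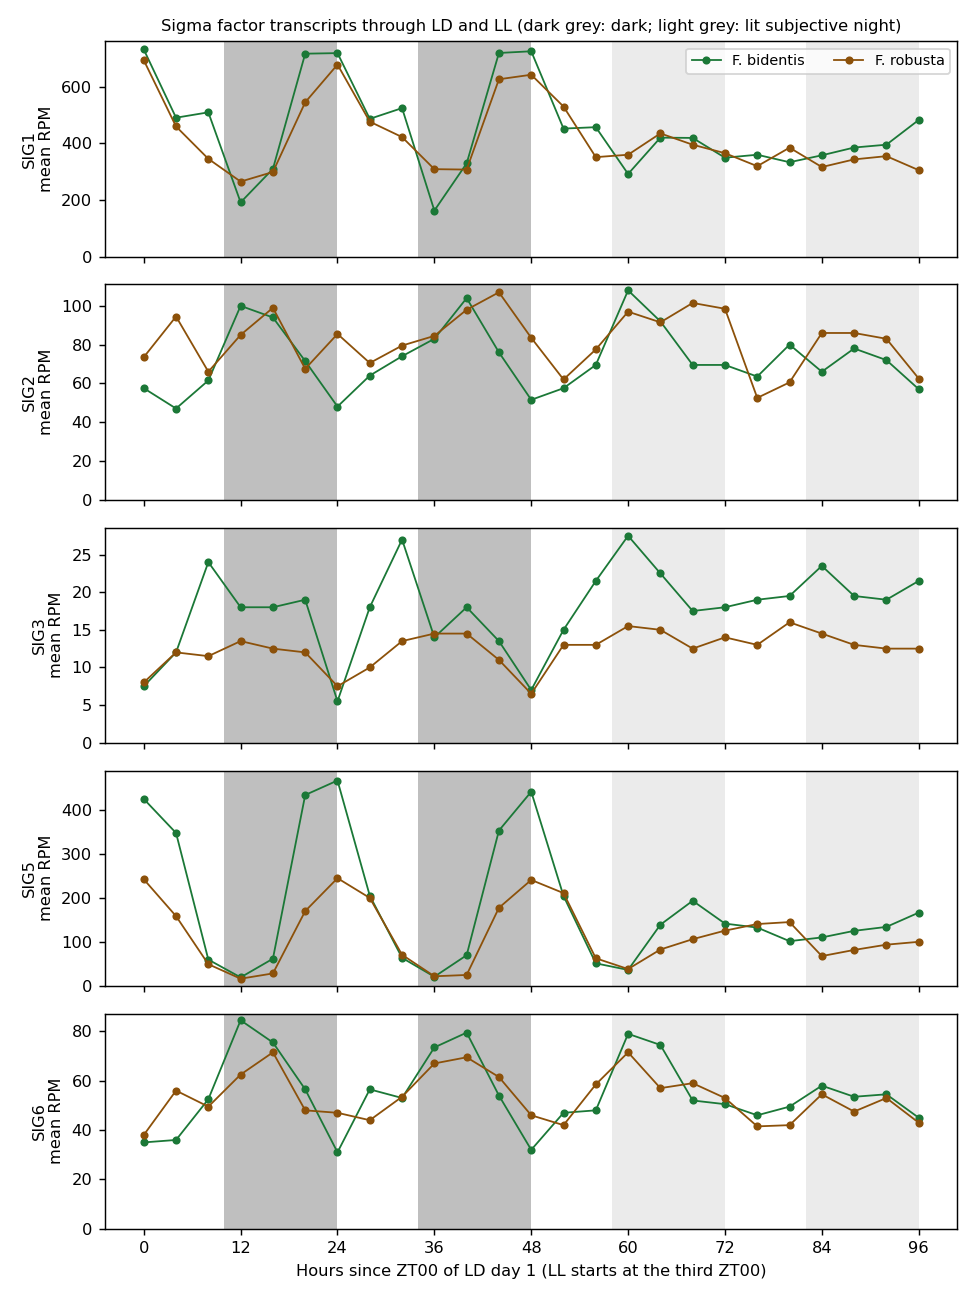
The authors' mean RPM (linear axes from 0) of the 5 measured sigma factors in each of the 25 time points per species, against hours since ZT00 of LD day 1. SIG5 and SIG1 are high around ZT00 and low at ZT12 in LD, and on LL day 2 SIG5 stays between 101.5 and 141.5 RPM in F. bidentis and between 67.5 and 145 RPM in F. robusta.

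SIG5 had the widest daily course of the set. In F. bidentis its level on LD day 1 was 425.5 RPM at ZT00, 348 at ZT04, 59.5 at ZT08, 19 at ZT12, 61.5 at ZT16 and 434.5 at ZT20. On LD day 2 it was 467.5, 205, 63.5, 20.5, 69.5 and 353.5 RPM at the same hours. The ZT20 and ZT00 means were thus high on both days and the ZT12 means low, and the 2 groups of hours did not overlap. In F. robusta the level was 242.5, 158.5, 49, 16, 28 and 170 RPM from ZT00 to ZT20 of LD day 1. On LD day 2 it was 245, 200, 70.5, 21.5, 24.5 and 177.5 RPM. The lowest mean was at ZT12 on both days in both species. ZT16 lay slightly above ZT08 in F. bidentis and below it in F. robusta, a contrast that was not tested. After TMM, ZT16 lay below ZT08 in F. bidentis too, at 47.9 against 63.96 RPM on LD day 1 and 56.09 against 64.2 RPM on LD day 2. The highest mean of a day was 22.9 and 22.8 times the lowest in F. bidentis and 15.2 and 11.4 times the lowest in F. robusta.

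Most of the rise of SIG5 came in the second part of the dark period, before lights on. From ZT16 to ZT20, both in darkness, SIG5 rose by 2.57 log2 units in F. bidentis (SE 0.21, adjusted p = 1.74e-05, limma) and by 2.68 in F. robusta (SE 0.22, adjusted p = 2.54e-05). Over all genes, this step was called for 6.02% in F. bidentis and 1.64% in F. robusta. From ZT12 to ZT16 it also rose in F. bidentis, by 1.68 (adjusted p = 0.000493, against 14% of all genes called). In F. robusta the same step was 0.48 and did not pass (adjusted p = 0.435, 1.05% of genes called); the difference of the 2 steps was not tested. The fall began in the light and went on over lights off. From ZT04 to ZT08 SIG5 fell by 2.10 in F. bidentis (adjusted p = 9.4e-05, 9.59% of genes called) and by 1.58 in F. robusta (adjusted p = 0.00169, 3.63% called). From ZT08 to ZT12, across lights off, it fell by 1.59 and 1.61 (adjusted p = 0.000363 and 0.00209, with 30.1% and 12% called). The fall from ZT00 to ZT04 in F. bidentis, by 0.74 (adjusted p = 0.0253, 24.5% called), was lost without LD day 1 ZT00, LD day 2 ZT00 or LD day 2 ZT04 (adjusted p = 0.063, 0.128 and 0.183); it was −0.36 without the last of these and −1.12 without LD day 1 ZT04 (adjusted p = 0.000959). In F. robusta this step was −0.45 (adjusted p = 0.319). From ZT20 to ZT00 SIG5 did not pass, at 0.19 (adjusted p = 0.515) for F. bidentis and 0.49 (0.158) for F. robusta.

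SIG1, in Arabidopsis a general sigma factor that takes part in setting the balance of the photosystems, was also high around dawn. In F. bidentis it stood at 732.5, 491, 510, 191.5, 310 and 717.5 RPM from ZT00 to ZT20 of LD day 1, and at 719.5, 487, 525, 162.5, 329.5 and 720 RPM on day 2. In F. robusta it stood at 694.5, 460, 345.5, 265, 299 and 545.5 RPM on day 1 and at 679, 477, 422.5, 309, 307.5 and 627 RPM on day 2. The ZT00 and ZT20 means lay above those of all other hours in each species, after TMM in F. bidentis only. In F. robusta LD day 1 ZT20 was then at 459.2 RPM. That is below ZT04 of both days (566.7 and 515.5 RPM) and ZT08 of LD day 2 (492.3 RPM). The ZT12 means of F. bidentis, 191.5 and 162.5 RPM, lay below all 12 LD means of F. robusta. In F. bidentis SIG1 fell by 0.57 from ZT00 to ZT04 (adjusted p = 0.0077), a call that held in every alternative run and without any single mean. It fell by 1.55 from ZT08 to ZT12 (adjusted p = 1.26e-05), rose by 0.85 from ZT12 to ZT16 (adjusted p = 0.00153) and rose by 1.17 from ZT16 to ZT20 (adjusted p = 0.000191), so it too rose within the dark. In F. robusta the changes over these steps were −0.42 (adjusted p = 0.14), 0.08 (adjusted p = 0.913; −0.01 after TMM) and 0.95 (adjusted p = 0.0279). The F. robusta fall from ZT08 to ZT12 passed after TMM (−0.86, adjusted p = 0.0426). Its rise to ZT20 was lost without LD day 1 ZT00 or ZT16 or LD day 2 ZT00, ZT16 or ZT20, with adjusted p between 0.0622 and 0.148. From ZT00 to ZT04 F. robusta had −0.55 (adjusted p = 0.144). The remaining SIG1 steps, ZT04 to ZT08 and ZT20 to ZT00, lay between −0.29 and 0.23 and did not pass.

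SIG2, SIG3 and SIG6 had other courses, highest between ZT08 and ZT16 in F. bidentis before TMM. SIG2, which in Arabidopsis reads several plastid tRNA genes, ranged in LD from 47 over a median of 72.8 to 104 RPM in F. bidentis and from 66 over 84.8 to 107 RPM in F. robusta. SIG6, a sigma factor needed early in Arabidopsis chloroplast development, ranged from 31 over 55.2 to 84.5 RPM in F. bidentis and from 38 over 54.8 to 71.5 RPM in F. robusta. For both genes the ranges of the species overlap. In F. bidentis both genes were lowest at ZT00 or ZT04 and highest at ZT12 or ZT16 on each LD day. After TMM SIG6 was highest at ZT04 on LD day 2, at 64.89 RPM, against 63.26 at ZT12 and 64.16 at ZT16. On that day TMM took the ratio of highest to lowest mean from 2.17 to 1.42 for SIG2 and from 2.56 to 1.7 for SIG6. SIG3, linked in Arabidopsis to psbN, ranged from 5.5 over 18 to 27 RPM in F. bidentis and from 7.5 over 12 to 14.5 RPM in F. robusta. Its lowest means were those of ZT00 in both species, 7.5 and 5.5 RPM in F. bidentis and 8 and 7.5 RPM in F. robusta. At ZT08 of F. bidentis SIG3 stood at 24 and 27 RPM, above every LD mean of F. robusta.

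SIG3 in F. bidentis fell from ZT20 to ZT00 by 1.20 (adjusted p = 0.00624, 25.9% of genes called) and rose again from ZT00 to ZT04 by 1.08 (adjusted p = 0.00512). Both calls depended on single means, LD day 2 ZT00 among them. The fall was lost without LD day 1 ZT20 (adjusted p = 0.0615) or LD day 2 ZT00 (0.0587), and the rise without LD day 2 ZT00 (0.0533). In F. robusta the same steps were −0.51 (adjusted p = 0.113, 2.9% called) and 0.45 (adjusted p = 0.233, 4.59% called). From ZT08 to ZT12 in F. bidentis, SIG3 fell by 0.65 (adjusted p = 0.0468), where F. robusta had 0.16 (adjusted p = 0.556; −0.26 after TMM). That fall was lost with a pseudocount of 0.1 (adjusted p = 0.0545), with no filter (0.0609) and without any of 6 single means, namely ZT08, ZT12 and ZT16 of LD days 1 and 2 (0.0616 to 0.273). SIG6 in F. bidentis rose by 0.57 from ZT08 to ZT12 (adjusted p = 0.0365) and fell by 0.73 from ZT20 to ZT00 (adjusted p = 0.0191). Neither passed after TMM (0.32, adjusted p = 0.279, and −0.36, adjusted p = 0.339). The rise was lost without any of the same 6 means (adjusted p = 0.0542 to 0.178) and the fall without LD day 1 ZT20, LD day 2 ZT00 or LD day 2 ZT20 (0.0952, 0.11 and 0.0684). In F. robusta these 2 SIG6 steps were 0.32 and −0.36 (adjusted p = 0.244 and 0.228; −0.11 and 0.04 after TMM). The other steps of SIG3 and SIG6 lay between −0.48 and 0.75 and those of SIG2 between −0.48 and 0.43 in the 2 species, and none passed.

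A rhythm was a fitted cosine of 24 h beside a linear trend over the 12 LD means. In F. bidentis 4 of the 5 tested sigma factors were called rhythmic, against 67.3% of all 13563 genes tested. SIG5 had a fitted peak-to-trough difference of 4.54 log2 units (SE 0.30, peak at ZT23.7, adjusted p = 3.48e-06). SIG1 had 1.75 (SE 0.33, peak at ZT0.28, adjusted p = 0.0026). SIG6 had 1.11 (SE 0.19, peak at ZT13.5, adjusted p = 0.0014) and SIG2 had 0.90 (SE 0.16, peak at ZT14.3, adjusted p = 0.00174). After TMM the rhythm of SIG2 was 0.37 and no longer passed (adjusted p = 0.14), while SIG6 was at 0.65 and still passed (adjusted p = 0.0271). Fitted peaks after TMM were at ZT13.2 for SIG2, ZT12.2 for SIG6, ZT9.09 for SIG3, ZT0.94 for SIG1 and ZT0.06 for SIG5. SIG3, at 1.09 (SE 0.37, peak at ZT11), missed the threshold (adjusted p = 0.0539) but passed without the linear trend (0.0358), with a 12 h term added (0.00154), without LD day 1 ZT20 (0.0151) or without LD day 2 ZT12 (0.0142).

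In F. robusta 4 of 5 were likewise called, against 65.4% of all genes. SIG5 had 4.05 (SE 0.25, peak at ZT0.82, adjusted p = 4.49e-07) and SIG1 had 1.30 (SE 0.17, peak at ZT0.25, adjusted p = 0.000193). SIG3 had 0.63 (SE 0.17, peak at ZT12.4, adjusted p = 0.0159) and SIG6 had 0.59 (SE 0.17, peak at ZT13.9, adjusted p = 0.0235). SIG2, at 0.24 (SE 0.20), did not pass (adjusted p = 0.547). SIG5 and SIG1 were called in both species under every alternative run. SIG3 and SIG6 of F. robusta were lost after TMM (adjusted p = 0.0555 and 0.463, with fitted peaks at ZT8.45 and ZT8.61). They were also lost without the 6 F. robusta means of highest TMM factor (0.0565 and 0.0716), 2 of which, ZT12 and ZT16 of day 2, are in LD. SIG3 was lost without LD day 2 ZT00 (0.0759) and SIG6 without LD day 1 ZT12 or ZT16 or LD day 2 ZT00 or ZT04 (0.0503 to 0.0857).

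**Figure D2:**
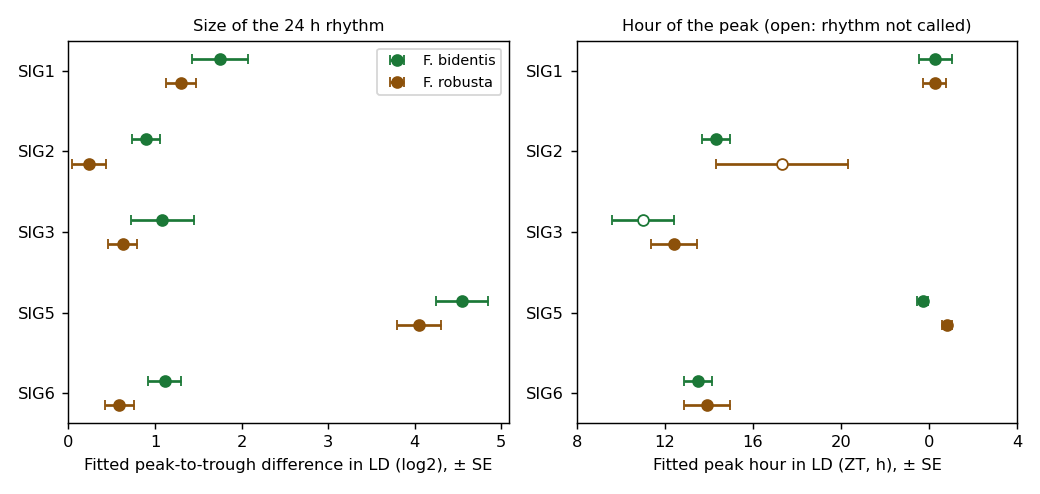
Fitted peak-to-trough difference in LD on the log2 scale (left) and fitted peak hour (right) of each tested sigma factor, with standard errors, from 12 means per species. The span of SIG5 is 4.54 for F. bidentis and 4.05 for F. robusta. SIG1 and SIG5 peak near ZT00 and the other called rhythms between ZT12.4 and ZT14.3. Open symbols mark rhythms not called, SIG3 of F. bidentis at ZT11 and SIG2 of F. robusta at ZT17.3. After TMM, not shown, SIG3 and SIG6 of F. robusta had fitted peaks at ZT8.45 and ZT8.61 and did not pass.

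The rhythms did not differ between the species for any member by the test of the difference itself, which called 9.03% of all genes. At an unadjusted p of 0.05, 2 members passed, SIG5 (adjusted p = 0.105) and SIG2 (adjusted p = 0.126), as did 3327 of all 13563 genes. The difference between the SIG5 rhythms spanned 1.32 log2 units (SE 0.42), with peaks at ZT23.7 and ZT0.82. It passed with a 12 h term added (1.34, adjusted p = 0.00774) and without LD day 1 ZT20 of F. robusta (1.58, adjusted p = 0.0456). The difference for SIG2 spanned 0.75 (SE 0.25), and SIG1, SIG3 and SIG6 had 0.45, 0.55 and 0.53 (adjusted p = 0.713, 0.658 and 0.336).

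Levels at matched hours were compared next. In LD 2 of 5 members were higher in F. bidentis and 0 lower, against 64.8% of all genes called in either direction. SIG5 was higher in F. bidentis by 0.68 log2 units (95% interval 0.36 to 0.99, a ratio of 1.60, adjusted p = 0.000877) and SIG3 by 0.36 (0.11 to 0.61, a ratio of 1.28, adjusted p = 0.0146). With only ZT00, ZT04 and ZT08, SIG3 no longer passed (0.38, adjusted p = 0.139). The levels of SIG1 and SIG6 differed by 0.04 (−0.19 to 0.27) and 0.00 (−0.20 to 0.20). SIG2 was at −0.22 (−0.44 to −0.01, adjusted p = 0.0673) and passed as lower in F. bidentis with ZT00, ZT04 and ZT08 only (−0.42, adjusted p = 0.0339) or without LD day 1 ZT12 of both species (−0.27, adjusted p = 0.0376).

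In LL, where 67.8% of all genes were called, the same 2 members passed. SIG3 ranged in LL from 7 over a median of 19.5 to 27.5 RPM in F. bidentis and from 6.5 over 13 to 16 RPM in F. robusta. Every LL mean of SIG3 in F. bidentis lay above the F. robusta mean of the same time point. It was higher in F. bidentis by 0.49 (95% interval 0.33 to 0.66, adjusted p = 1.94e-05), with an all-gene median of −0.13 that TMM moved to −0.02. SIG5 was higher by 0.32 (0.07 to 0.58, adjusted p = 0.0255). It was 0.12 with ZT00, ZT04 and ZT08 only (adjusted p = 0.591), 0.56 with ZT12, ZT16 and ZT20 only (0.00189), and did not pass without LL day 1 ZT00, ZT16 or ZT20, LL day 2 ZT12 or ZT16, or LL day 3 ZT00 (0.0515 to 0.0586). SIG2 was at −0.15 (−0.35 to 0.04) and passed without the 6 F. robusta means (−0.26, adjusted p = 0.0231). SIG1 and SIG6 were at 0.09 and 0.03 (adjusted p = 0.373 and 0.755).

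**Figure D3:**
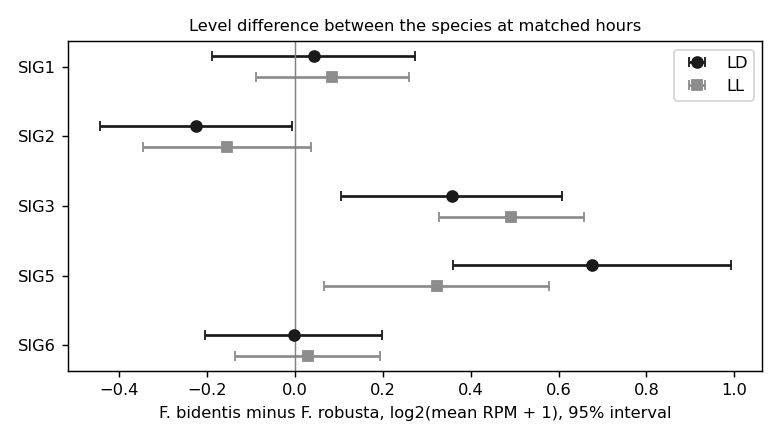
Level in F. bidentis minus level in F. robusta at matched hours, in log2(mean RPM + 1) with 95% intervals, for LD (12 hours per species) and LL (13 per species). The intervals of SIG3 and SIG5 lie above 0 in both regimes, at 0.36 and 0.68 in LD and 0.49 and 0.32 in LL.

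Light at night was compared at ZT12, ZT16 and ZT20, lit in LL and dark in LD. In LD these hours also had the dark setting of 20 °C. Without a stated LL temperature, a difference is one between regimes and not of light alone. Averaged over these hours, 1 of 5 members was called in F. bidentis, against 41% of all genes, which were mostly lower (4804 of 5555 calls, all-gene median −0.21, 0.01 after TMM). SIG3 was higher in the light by 0.34 (SE 0.12, adjusted p = 0.0344; 0.58 and adjusted p = 0.00172 after TMM). It did not pass with LL day 1 alone (0.39, adjusted p = 0.0882) or LL day 2 alone (0.29, adjusted p = 0.135). Leaving out single means lost it in 9 of 12 cases (adjusted p = 0.0507 to 0.0818), namely ZT12 and ZT16 of LD day 1, ZT12, ZT16 and ZT20 of LD day 2, ZT12 and ZT16 of LL day 1 and ZT12 and ZT20 of LL day 2. In F. robusta 0 of 5 members passed in limma, against 6.31% of all genes (all-gene median −0.19, 0.01 after TMM). At an unadjusted p of 0.05, 1 member passed there, SIG5, as did 3716 of all 13563 genes. Between the species, 0 of 5 passed, against 1.03%, and 0 also unadjusted, beside 1665 of all genes. The members that did not pass lay between −0.19 and 0.45 in F. bidentis and between −0.15 and 0.74 in F. robusta, the highest in each being SIG5.

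Taken hour by hour, SIG1 of F. bidentis was called in both directions within the night, and SIG5 was called at 1 hour in each species. In F. bidentis SIG5 on the first lit night was 36, 139 and 193.5 RPM at ZT12, ZT16 and ZT20 and on the second 110, 125 and 134 RPM. These values lie above both dark means at ZT12 and ZT16 and below both at ZT20. LL minus LD was 1.63 at ZT12 (SE 0.42, adjusted p = 0.0288, 19.9% of genes called), 1.001 at ZT16 (adjusted p = 0.115, 22.3% called) and −1.28 at ZT20 (adjusted p = 0.0571, 24.5% called). The ZT12 call was lost without ZT12 of LD day 1 or 2 (adjusted p = 0.13 and 0.138), and its value ran from 0.83 without LL day 2 ZT12 to 2.42 without LL day 1 ZT12. The ZT16 difference passed without ZT12 of LL day 1 or 2 (adjusted p = 0.00347 and 0.00345), and so did the ZT20 difference (0.000589 and 0.000583). The ZT20 difference also passed with no filter (0.0447) and with a filter at 5 RPM (0.0498).

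In F. robusta SIG5 was 38, 82.5 and 106 RPM on the first lit night and 67.5, 81.5 and 93.5 RPM on the second, again above both dark means at ZT12 and ZT16 and below both at ZT20. The differences were 1.40 at ZT12 (SE 0.27, adjusted p = 0.0967, 0.0885% of genes called), 1.61 at ZT16 (adjusted p = 0.0394, 0.17% called) and −0.80 at ZT20 (adjusted p = 0.339, 0.295% called). The ZT16 call was lost with no filter (0.0651) and without ZT12 or ZT16 of LD day 1 or 2, or ZT16 of LL day 1 or 2 (0.053 to 0.329). The ZT12 difference passed without LL day 1 ZT12 (1.81, adjusted p = 0.0345).

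SIG1 in F. bidentis was 292, 420.5 and 419.5 RPM on the first lit night and 358, 385.5 and 395.5 RPM on the second, with all ZT12 and ZT16 values above and all ZT20 values below those in the dark. The difference was 0.87 at ZT12 (SE 0.14, adjusted p = 0.00147), 0.33 at ZT16 (adjusted p = 0.106; 0.69 and 0.0254 after TMM) and −0.82 at ZT20 (adjusted p = 0.00229). The calls at ZT12 and ZT20 passed in every alternative run and without any single mean. In F. robusta the SIG1 differences were 0.24, 0.35 and −0.64 (adjusted p = 0.666, 0.464 and 0.357). SIG3 in F. bidentis was higher in the light at ZT12 by 0.65 (adjusted p = 0.0276), a call lost without ZT12 of LD day 2, LL day 1 or LL day 2 (0.225, 0.0996 and 0.0547). SIG2 and SIG6 gave differences between −0.43 and 0.11 over the 3 hours and both species, none of which passed, and in F. bidentis their small negative values turned positive after TMM in 5 of 6 cases, SIG6 at ZT12 staying at −0.08. In F. robusta SIG6 at ZT12 and SIG2 at ZT16 turned positive (0.19 and 0.14). SIG6 at ZT16 in F. bidentis, −0.29, passed without LL day 1 ZT16 (−0.53, adjusted p = 0.0474).

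**Figure D4:**
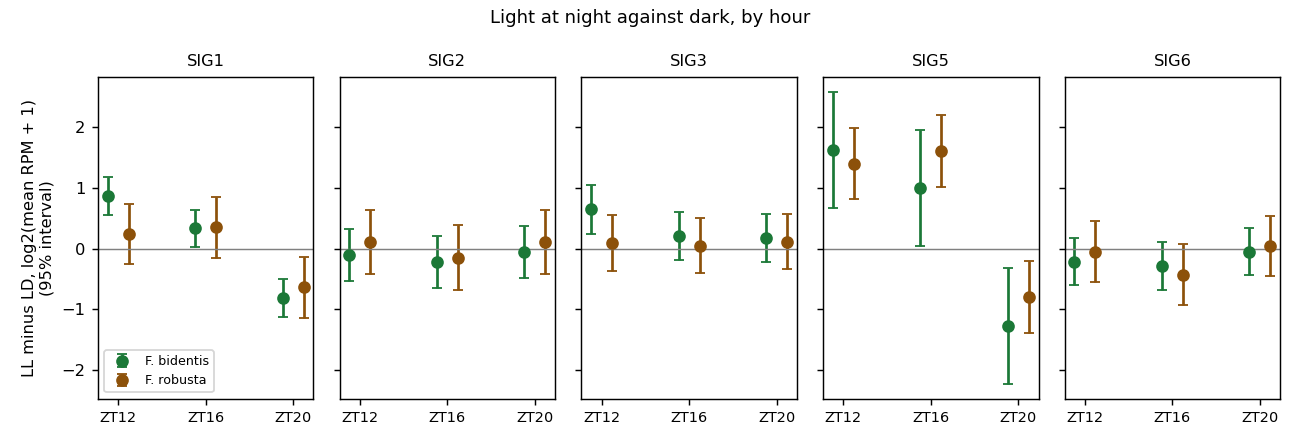
LL minus LD in log2(mean RPM + 1) at the 3 hours that are dark in LD, with 95% intervals, from 2 means per regime and hour in each species. SIG5 is above 0 at ZT12 and ZT16 and below 0 at ZT20 in both species, and SIG1 of F. bidentis runs from 0.87 at ZT12 to −0.82 at ZT20.

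In F. bidentis the daily courses of all tested members were narrower on LL day 2 than on either LD day. In F. robusta this held for all of them but SIG2. SIG5 in F. bidentis on LL day 1 still ran from 442 RPM at ZT00 to 36 RPM at ZT12, and on LL day 2 held 141.5, 132.5, 101.5, 110, 125 and 134 RPM. In F. robusta it ran from 241 to 38 RPM on LL day 1 and held 125.5, 140.5, 145, 67.5, 81.5 and 93.5 RPM on LL day 2. After TMM the latter were 145.7, 114.5, 117.3, 69.9, 82.9 and 78.2 RPM, highest at ZT00 and not at ZT08. Before TMM, the highest SIG5 mean was 1.39 times the lowest on LL day 2 in F. bidentis and 2.15 times in F. robusta. On LL day 1 it was 12.3 and 6.34 times the lowest. SIG1 went from ratios of 3.83 and 4.43 on the LD days to 2.49 and 1.19 on LL days 1 and 2 in F. bidentis, and from 2.62 and 2.21 to 1.83 and 1.22 in F. robusta. SIG2, SIG3 and SIG6 of F. bidentis had ratios of 1.26, 1.31 and 1.26 on LL day 2, against 2.13 to 4.91 on the LD days. SIG3 and SIG6 of F. robusta had 1.28 and 1.31, against 1.58 to 1.93. After TMM these 2 had 1.56 and 1.82 on LL day 2, no longer below both LD days. SIG2 of F. robusta had ratios of 1.50, 1.52, 1.64 and 1.88 from LD day 1 to LL day 2 (2.05, 1.53, 1.64 and 2.67 after TMM).

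Over the 13 LL means, 0 of 5 members were called rhythmic in limma in either species, and 0% of all genes were. At an unadjusted p of 0.05, 4 members passed in F. bidentis (SIG2, SIG3, SIG5 and SIG6) and 2 in F. robusta (SIG2 and SIG5), as did 2612 and 1788 of all genes. The fitted span of SIG5 was 1.77 (SE 0.44, adjusted p = 0.246) in F. bidentis and 1.42 (SE 0.35, adjusted p = 0.312) in F. robusta. The other members had spans from 0.48 to 0.72 and from 0.30 to 0.74. The test of LD against LL itself called 0.464% of genes and 0 members in F. bidentis. At an unadjusted p of 0.05 it passed 2 members, SIG1 (adjusted p = 0.121) and SIG5 (2.88 log2 units, adjusted p = 0.0549), and 3239 of all genes. SIG2, SIG3 and SIG6 had 0.34, 0.38 and 0.47 (adjusted p = 0.551, 0.801 and 0.406). SIG5 passed after TMM (0.0333), with a filter at 5 RPM (0.0442), without the trend (0.0255) and without ZT00, ZT04, ZT08 or ZT12 of LL day 1 (0.00478 to 0.0255), and SIG1 without LL day 1 ZT00 (0.0385).

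In F. robusta the same test called 27.9% of all genes, and SIG5 (2.66, SE 0.47, adjusted p = 0.00984) and SIG1 (1.09, SE 0.24, adjusted p = 0.0175) among the members. Without the 6 F. robusta means of highest TMM factor neither passed (2.08, adjusted p = 0.476, and 0.999, adjusted p = 0.506) and 0 genes were called. SIG1 also failed without the trend (1.01, adjusted p = 0.0773), and was at 1.66 after TMM (adjusted p = 0.02). SIG2, SIG3 and SIG6 had 0.50, 0.29 and 0.23 (adjusted p = 0.277, 0.635 and 0.656).

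Hours after a skipped night were compared by setting ZT00, ZT04 and ZT08 of LL day 2 against the same hours of LD days 1 and 2 and LL day 1. At the earlier ZT00 means a dark night had just ended, while LL day 2 ZT00 followed a lit night. In F. bidentis, where 10.9% of genes were called, SIG1 stood at 349.5, 360 and 333.5 RPM, below each of the 9 earlier means. It was lower by 0.68 (SE 0.12, adjusted p = 0.00386). SIG5 stood at 141.5, 132.5 and 101.5 RPM, below the earlier ZT00 and ZT04 means and above the earlier ZT08 means. Its averaged difference was −0.57 (adjusted p = 0.31), with −1.26 without LL day 2 ZT08 (adjusted p = 0.00302) and −0.04 without LL day 2 ZT00 (0.968). SIG3 stood at 18, 19 and 19.5 RPM, a difference of 0.46 (adjusted p = 0.235), which passed without LL day 2 ZT08 (0.83, adjusted p = 0.0213) and was 0.02 without LL day 2 ZT00 (0.964). SIG2 and SIG6 were at 0.27 and 0.19 (adjusted p = 0.15 and 0.46).

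In F. robusta 33% of genes were called, with an all-gene median of 0.28 that TMM moved to 0. SIG1 stood at 365.5, 319.5 and 385 RPM and was lower by 0.48 (SE 0.16, adjusted p = 0.0336; −0.80 and 0.00377 after TMM). SIG3 stood at 14, 13 and 16 RPM and was higher by 0.44 (adjusted p = 0.0345), but not after TMM (0.15, adjusted p = 0.629). The SIG1 call was lost without 7 single means, ZT00, ZT04 or ZT08 of LD day 2, ZT00 or ZT04 of LL day 2, LD day 1 ZT00 or LL day 1 ZT04 (adjusted p = 0.0513 to 0.193, at −0.28 without LL day 2 ZT00), and the difference was −0.74 without LL day 2 ZT08 (0.00561). The SIG3 call was lost without LD day 1 ZT08, LD day 2 ZT04, LL day 1 ZT00, LL day 2 ZT00 or LL day 2 ZT08 (0.0509 to 0.165, at 0.23 without LL day 2 ZT00). SIG5, at 125.5, 140.5 and 145 RPM, gave −0.04 (adjusted p = 0.933), with −0.68 (adjusted p = 0.023) without LL day 2 ZT08 and 0.42 (0.233) without LL day 2 ZT00. SIG2, at −0.17, ran from −0.39 without LL day 2 ZT00 (adjusted p = 0.0475) to −0.00148, and SIG6 was at −0.08 (adjusted p = 0.681). Without the 6 F. robusta means, ZT00 is the only LL day 2 hour left in this comparison, so that fit is not read here.

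CCA1, a morning clock gene that in Arabidopsis belongs to the network that times SIG5, was set beside it. In F. bidentis CCA1 was 197.5, 69, 4.5, 2.5, 6.5 and 72 RPM from ZT00 to ZT20 of LD day 1, and between 7 and 12 RPM on LL day 2. In F. robusta it was 344, 102, 11, 5, 8.5 and 118 RPM on LD day 1, and between 15.5 and 46.5 RPM on LL day 2. In both species the lowest LD mean of CCA1, as of SIG5, was at ZT12 on each day. At ZT08 of LL day 2 CCA1 and SIG5 of F. robusta stood at 37 and 145 RPM, against 11 and 10.5 RPM for CCA1 and 49 and 70.5 RPM for SIG5 at ZT08 of the LD days. That LL mean has a TMM factor of 1.24, and after TMM SIG5 was at 117.3 RPM, against 54.75 and 82.15 RPM. In LD CCA1 was lower in F. bidentis (by 0.77 log2 units, adjusted p = 8.17e-07), opposite to SIG5.

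The 10 light and clock genes listed as regulators of SIG5 in Arabidopsis were all called rhythmic in LD in both species (8 in F. bidentis and 9 in F. robusta after TMM). Of all genes 67.3% and 65.4% were so called, and 40.7% and 41.8% after TMM. In lit nights 1 of the 10 was higher and 4 lower in F. bidentis (41% of all genes called), and 3 were higher and 2 lower in F. robusta (6.31% called). HY5, a bZIP factor that acts downstream of photoreceptors, was higher in lit than in dark nights by 1.10 in F. bidentis (adjusted p = 0.042) and 1.77 in F. robusta (adjusted p = 0.00446). Its relative HYH was higher in F. robusta by 0.93 (adjusted p = 0.014), and was at 0.24 in F. bidentis (adjusted p = 0.402). HYH ranged only from 0 to 5.5 RPM over all means, near the floor, which limits what its differences here and in LD level can show. The blue-light receptor gene CRY2 was lower in lit nights in F. bidentis by 0.90 (adjusted p = 7.25e-05), as were the clock gene ELF3 by 0.88 (0.000234), PHYA by 0.60 (0.00561) and CRY1 by 0.65 (0.0116), the last 2 not after TMM (0.0632 and 0.096). In F. robusta ELF3 was lower by 0.54 (adjusted p = 0.0351) and PHYA by 0.52 (0.0397), neither after TMM (0.132 and 0.0991), while the clock gene TOC1 was higher by 1.19 (0.0416). In LD, 5 of the 10 were higher in F. bidentis and 1 lower, a share near the 64.8% of all genes called; PHYA, which encodes the far-red light receptor, was higher by 1.45 (adjusted p = 1.45e-07) and HYH by 1.03 (adjusted p = 5.02e-05).

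Among the other nuclear genes of plastid transcription, the called phage-type polymerases and associated proteins had fitted peaks between ZT10.3 and ZT16. Those still called after TMM had peaks between ZT7.73 (PAP4, F. bidentis) and ZT16.3 (PAP5, F. robusta). The phage-type RNA polymerases, single-subunit enzymes of nuclear origin, were all rhythmic in LD, 3 of 3 in each species, beside 67.3% and 65.4% of all genes. RPOTp, the plastid enzyme, had a span of 2.36 with a peak at ZT10.7 in F. bidentis (adjusted p = 0.000455) and 2.39 with a peak at ZT10.6 in F. robusta (adjusted p = 7.94e-05). RPOTmp, present in both organelles, had 1.44 with a peak at ZT11.3 and 1.50 with a peak at ZT13.5, and the mitochondrial RPOTm had 2.05 at ZT10.3 and 1.58 at ZT11.6. In lit nights of F. bidentis, where 4804 of 5555 genes called (41% of all) were lower, all 3 were lower, RPOTp by 0.64 (adjusted p = 0.0135), RPOTm by 0.46 (0.0119) and RPOTmp by 0.41 (0.0111). After TMM these differences were −0.40, −0.22 and −0.16 and did not pass (adjusted p = 0.123, 0.232 and 0.289). In F. robusta RPOTmp alone was called, lower by 0.73 (adjusted p = 0.0431; 0.0875 after TMM). In LD RPOTmp was lower in F. bidentis by 0.59 (adjusted p = 0.00139).

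Of 13 polymerase-associated proteins (PAPs), which surround the plastid-encoded core, 12 were tested. All 12 were called rhythmic for F. bidentis and 8 for F. robusta in LD. Of all genes 67.3% and 65.4% were called. After TMM the counts were 12 and 3, beside 40.7% and 41.8% of all genes. Their median span was 1.72 and 1.0, beside 1.11 and 0.63 for the sigma factors and 0.80 and 0.79 for all genes. PAP8, which was among the genes most like SIG6, peaked at ZT14.1 with a span of 1.55 in F. bidentis (adjusted p = 3.85e-05). PAP1 had 2.48 with a peak at ZT13.5 in F. bidentis (adjusted p = 0.000121), and PAP5 had 1.70 with a peak at ZT16 in F. robusta (adjusted p = 8.05e-06). The rhythm differed between the species for 3 of the 12, PAP5 (adjusted p = 0.00442), PAP7 (0.00756) and PAP2 (0.0316), beside 9.03% of all genes. Of these, PAP2 was not called rhythmic in F. robusta (adjusted p = 0.655). PAP7 was no longer called there after TMM (0.958). In LD, where 64.8% of all genes were called, 7 PAPs were lower in F. bidentis, among them PAP4 by 1.16 (adjusted p = 8.59e-06) and PAP1 by 0.98 (5.4e-05), and 2 were higher, PAP8 by 0.92 (adjusted p = 4.3e-05) and PAP12 by 0.71 (0.000144). In lit nights 1 PAP was higher and 3 lower in F. bidentis (41% of all genes called), and 1 was lower for F. robusta (6.31% called). Of the 4 sigma factor partners tested, 2 were lower in lit nights of F. bidentis. Of the same 4, 4 and 3 were rhythmic in LD (2 and 2 after TMM), beside the same shares of all genes; CSK, a chloroplast sensor kinase that acts on SIG1 in Arabidopsis, was higher in F. bidentis in LD by 0.85 (adjusted p = 1.77e-06). The genes of the plastid genome that sigma factors read were not analysed here.

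**Figure D5:**
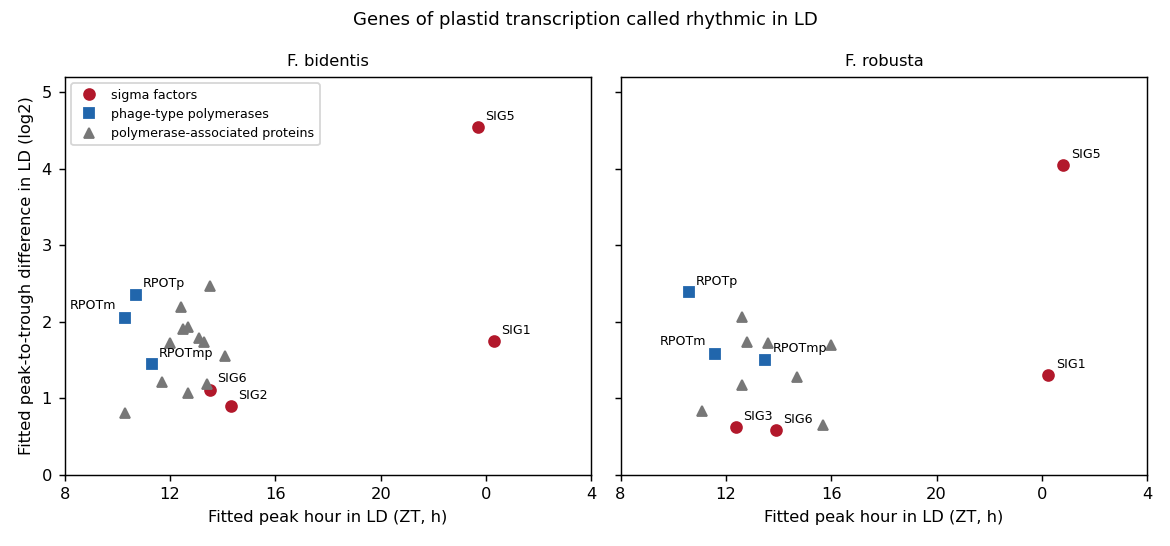
Fitted peak hour in LD (ZT, horizontal) against fitted peak-to-trough difference (log2, vertical) for the sigma factors, phage-type polymerases and polymerase-associated proteins called rhythmic in each species. SIG1 and SIG5 lie near ZT00, apart from the polymerases and associated proteins, which lie between ZT10.3 and ZT16.

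Among themselves the members fell into patterns that can be described by Pearson correlation of log2 values over the 25 means of a species, which share libraries, scaling and hours. SIG1 and SIG5 followed each other, with r of 0.85 for the F. bidentis means and 0.80 for those of F. robusta (0.88 and 0.84 after TMM). SIG2 and SIG6 did so with 0.92 and 0.76 (0.82 and 0.88 after TMM). SIG5 and SIG6 ran opposite, with −0.74 and −0.76; after TMM these were −0.74 and −0.17. The genes most like each member, by the lower of its r in the 2 species among 8762 candidates, were then read off. For SIG5 they were AT5G09930, annotated as an ABC transporter family protein (0.96 in both species), AT4G25650, annotated as ACD1-like (0.93 in both), and AT2G24270, aldehyde dehydrogenase 11A3 (0.96 and 0.92). For SIG1 they were AT1G48260, a CBL-interacting protein kinase (0.89 and 0.87), AT5G64940, an ABC2 homolog (0.87 and 0.91), and AT5G15840, a B-box zinc finger protein (0.86 and 0.89).

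For SIG2 the most alike were AT2G31890, RAP (0.92 and 0.91), AT5G11450, of the PsbP family (0.92 and 0.89), and AT5G16715, a valine-tRNA ligase (0.87 and 0.89). For SIG3 they were AT5G45800, a leucine-rich repeat kinase (0.89 and 0.88), AT5G67470, a formin homolog (0.90 and 0.87), and AT2G29630, annotated as thiaminC (0.85 and 0.87). For SIG6 they were AT4G16155, a dihydrolipoyl dehydrogenase (0.90 and 0.92), AT2G39140, a pseudouridine synthase family protein (0.89 and 0.91), and AT1G21600, PAP8 (0.89 and 0.88).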

How the data were processed

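Deposited values are the authors' mean RPM per time point (reads scaled to a common total, in steps of 0.5; column totals 999417.5 to 1000090) for 50 time points, each with 2 biological replicates per the labels; depth per library is not given here. Reads were single, of 100 bp, with 12 libraries per lane. The submitters' processing notes name CASAVA and TAIR10 without roles; neither the aligner nor the matching of Flaveria reads to Arabidopsis genes is stated there, so reads of close paralogs may be split or merged. Another 200 per-library columns match no sample title and were not used. Whether same-numbered replicates are separate plants is not stated beyond the labels.

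The models were fitted to log2(mean RPM + 1) by limma 3.58.1 under R 4.3.3, with trend and robust settings. All 13563 genes of at least 1 RPM on average were tested and p-values adjusted over them (Benjamini-Hochberg, threshold 0.05), which is the adjusted p given throughout. Fold changes of low genes are understated on this scale. Rhythms were F tests of a 24 h cosine and sine beside a linear trend; differences between species or regimes were tested as interactions. Night and skipped-night comparisons kept the hour as a term. Steps between hours, night hours taken singly, and the omission of 6 F. robusta means were chosen after seeing the data. Alternatives were TMM (30% of M and 5% of A trimmed), no trend, no filter, 0.1 as pseudocount, a 5 RPM filter, an added 12 h term, subsets of hours or LL days, and leaving out each mean.

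The fits were tested on simulated data with 100 changed genes per size. Of those changed by 1 and 2 log2 units, 44 and 90 were recovered for the LD rhythm in F. bidentis, 47 and 96 for the LL rhythm, and 88 and 98 for light at night. Only 200 of 13563 genes were changed there, and noise was independent. In the real F. bidentis data 67.3%, 0% and 41% of genes were called in these fits. The recovered counts therefore hold for the simulated setting and do not give the recovery in these data. Members, lists and tests were chosen with earlier results of these data known. Members are named in each comparison, steps that did not pass partly by their range. Other lists are given for LD rhythms, LD levels and light at night by counts and up to 4 members of smallest adjusted p, with the phage-type polymerases and CCA1 always named. HY5 (F. bidentis) and TOC1 (F. robusta), each the fifth in lit nights, were named after their values were seen. Genes most like a member had a description and at least 10 RPM in some mean of each species. PAP9 and SIB1 were not analysed here, and SIB2 is listed at 0.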

Additional observations from a re-analysis of the deposited data

Results flagged for a closer look

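The rhythm of 2 sigma factors differed between LD and LL in F. robusta by the test of the interaction of regime and rhythm. The difference spanned 2.66 log2 units for SIG5 (adjusted p = 0.00984) and 1.09 for SIG1 (adjusted p = 0.0175, limma). Neither passed without the 6 F. robusta means of highest TMM factor, which are ZT12 and ZT16 of LD day 2, ZT04, ZT08 and ZT20 of LL day 2 and ZT00 of LL day 3, with factors from 1.20 to 1.36. The part of these means in the result was not tested further.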

How the results depend on the processing

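No paired analysis was possible because each value is a mean over the replicates of a time point and carries no replicate number. Counts of sigma factors called changed as follows. TMM took the count rhythmic in LD in F. robusta from 4 to 2, differing between LD and LL in F. bidentis from 0 to 1, and changed after a skipped night in F. robusta from 2 to 1. Without the 6 F. robusta means the count rhythmic in LD in F. robusta was 2 and that differing between LD and LL in F. robusta was 0 rather than 2. With a 12 h term added, 1 rather than 0 differed between the species in LD rhythm. The LL level differed for 1 rather than 2 with only ZT00, ZT04 and ZT08. Light at night changed 0 rather than 1 in F. bidentis with LL day 1 only, and 0 with LL day 2 only. A filter at 5 RPM and no linear trend each took LD against LL in F. bidentis from 0 to 1, and no linear trend took it in F. robusta from 2 to 1.

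Over single means left out, the counts ran from 4 to 5 (LD rhythm, F. bidentis), 2 to 4 (LD rhythm, F. robusta), 0 to 1 (LD rhythm by species), 2 to 3 (LD level) and 1 to 2 (LL level). They ran from 0 to 1 (light at night, F. bidentis), 0 to 2 (LD against LL, F. bidentis), 1 to 3 (skipped night, F. bidentis) and 0 to 2 (skipped night, F. robusta). The cause was not tested. No sign changed for a called member in any alternative run.

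Values of uncalled members near 0 changed sign. With only ZT12, ZT16 and ZT20, the LD level difference was −0.107 for SIG1 and 0.146 for SIG6; the LL level difference of SIG6 was −0.037 with only ZT00, ZT04 and ZT08 and −0.0111 without the 6 F. robusta means. For light at night, TMM gave 0.122 for SIG2 and 0.064 for SIG6 in F. bidentis and 0.204 for SIG1 and 0.0714 for SIG6 in F. robusta. LL day 1 only gave 0.0187 for SIG2 in F. bidentis and 0.0959 for SIG1 in F. robusta, LL day 2 only −0.069 for SIG2 in F. robusta, and the omission of the 6 means 0.0517 for SIG1 in F. robusta. After a skipped night the latter, which leaves ZT00 as the single LL day 2 hour, gave 0.285 for SIG2 and 0.28 for SIG6 in F. robusta. In F. robusta, TMM gave LD steps of −0.258 for SIG3 and −0.112 for SIG6 from ZT08 to ZT12, −0.0118 for SIG1 from ZT12 to ZT16 and 0.0429 for SIG6 from ZT20 to ZT00. By night hour, TMM gave 0.0279, 0.13 and 0.208 for SIG2 at ZT12, ZT16 and ZT20 and 0.0589 and 0.213 for SIG6 at ZT16 and ZT20 in F. bidentis, and 0.194 for SIG6 at ZT12 and 0.14 for SIG2 at ZT16 in F. robusta.

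Leaving out single means gave ranges across 0 for the LD level of SIG1 (−0.00432 to 0.131) and SIG6 (−0.0412 to 0.0545). It did so for light at night of SIG1 in F. bidentis (−0.00113 to 0.257) and F. robusta (−0.106 to 0.0852), of SIG2 in F. robusta (−0.0708 to 0.0935) and of SIG6 between the species (−0.107 to 0.0324). After a skipped night it did so for SIG6 in F. bidentis (−0.0188 to 0.312) and for SIG5 (−0.684 to 0.419) and SIG6 (−0.261 to 0.0528) in F. robusta. The step of SIG1 from ZT12 to ZT16 in F. robusta ran from −0.0272 to 0.194. By night hour in F. bidentis, SIG2 at ZT12 ran from −0.459 to 0.243, SIG3 at ZT20 from −0.0562 to 0.408 and SIG6 at ZT12 from −0.436 to 0.00342. In F. robusta, SIG2 at ZT20 ran from −0.219 to 0.438, SIG3 at ZT16 from −0.0505 to 0.149, SIG6 at ZT12 from −0.244 to 0.142 and SIG6 at ZT20 from −0.135 to 0.216.

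Counts over all genes moved with scaling. TMM took LD rhythms from 9130 to 5514 genes (F. bidentis) and from 8875 to 5667 (F. robusta), LD against LL from 63 to 140 and from 3785 to 454, the skipped night in F. robusta from 4474 to 2376, light at night in F. robusta from 856 to 566 and its difference between species from 140 to 276. Without the 6 means, LD against LL in F. robusta called 0 genes. Leaving out single means gave 0 to 1844 genes for LD against LL in F. bidentis, 661 to 6046 in F. robusta, and 131 to 2676 for light at night in F. robusta. Depth per library is unknown here, which limits what low values such as those of SIG3 can show. A pseudocount of 0.1 and no filter changed none of the counts of sigma factors in the first paragraph. For single steps and night hours they did change calls of SIG3 and SIG5, given beside those values.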
